A study of Mus musculus with 22 samples.

Results

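The replication-dependent histone genes of the mouse were examined for acetylation of histone H3 at lysine 27 (H3K27ac) in myeloid progenitors. They were taken as the protein-coding genes whose GENCODE M21 symbol starts with Hist1h, Hist2h, Hist3h or Hist4, which gave 67 of the 21938 protein-coding genes on chromosomes 1 to 19, X and Y. Of these, 6 encode linker histones (H1), 18 encode H2a, 18 encode H2b, 12 encode H3 and 13 encode H4. The choice rested on gene symbols alone and used no measured value.

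The cells were KL cells, that is, viable Lin-cKit+Sca1- progenitors sorted from bone marrow of male C57BL/6 mice of genotype scl-Cre-ERT +; Bcorfl/y. Tamoxifen (1 mg on each of 5 days, intraperitoneal, at 3 to 6 months of age) switches on the Cre recombinase, which excises 2 exons (9 and 10) of Bcor, an X-linked gene, and marrow was taken 20 weeks later. The Cre is driven by a stem cell enhancer of Scl, so recombination depends on the cells in which it is active. The paper reports that recombination of Bcor was efficient, from PCR genotyping of sorted KL cells. It was not measured here for these libraries and may be incomplete. Chromatin immunoprecipitation followed by sequencing (ChIP-seq) gave 3 H3K27ac libraries of BcorΔE9-10 KL cells, which the methods of the study attribute to 3 mice. The other 19 of the 22 listed samples, among them all BcorWT libraries, were not analysed here, so nothing below compares genotypes.

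Replication-dependent histone genes supply the histones that package newly copied DNA, and they are transcribed mainly in S phase. They are short, usually lack introns, and end in a stem-loop in place of a poly(A) tail, which the stem-loop binding protein recognises. Most lie in dense clusters in which an H2a and an H2b gene are often transcribed away from each other from a shared spacer. H3K27ac marks the nucleosomes beside active promoters and at active enhancers, so in a dividing progenitor it can show where the histone promoters lie in relation to acetylated nucleosomes.

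The clusters differed widely in size. The chromosome 13 cluster held 54 genes and fell into 4 blocks separated by more than 100 kb. Block A (chr13:21715763-21837530) had 18 genes, block B (chr13:22035164-22043676) had 5, block C (chr13:23531050-23764406) had 29, and block D (chr13:23933773-23934851) had 2. The chromosome 3 cluster (chr3:96219865-96270132) held 10 genes, the chromosome 11 cluster (chr11:58948920-58956830) held Hist3h2ba and Hist3h2a, and Hist4h4 stood alone on chromosome 6 (chr6:136801553-136804415). All coordinates are GRCm38, counted from 1.

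The sequences below show the promoter DNA that the peaks flank. The first set are spacers between divergent H2a and H2b genes, running from the base after the start of the left gene to the base before the start of the right gene. Capitals mark matches, on either strand, to the TATA box letters TATAAA, the CCAAT box letters CCAAT, the octamer ATTTGCAT bound by POU factors in H2b promoters, and the H1 box AAACACA found in linker histone promoters. None of these strings contains another. The sequence is that of RefSeq GRCm38, plus strand.
Hist1h2ae and Hist1h2bg, chr13:23571221-23571395: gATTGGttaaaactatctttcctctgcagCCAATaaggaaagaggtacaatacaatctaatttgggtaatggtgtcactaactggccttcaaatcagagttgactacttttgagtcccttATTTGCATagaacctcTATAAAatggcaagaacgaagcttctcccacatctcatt
Hist2h2ac and Hist2h2be, chr3:96220881-96221118: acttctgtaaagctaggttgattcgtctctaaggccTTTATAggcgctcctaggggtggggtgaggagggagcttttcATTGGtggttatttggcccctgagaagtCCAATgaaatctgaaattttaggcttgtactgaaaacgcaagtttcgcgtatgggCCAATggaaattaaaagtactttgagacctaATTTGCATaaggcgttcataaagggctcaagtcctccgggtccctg
Hist1h2ba and Hist1h2aa, chr13:23934157-23934456: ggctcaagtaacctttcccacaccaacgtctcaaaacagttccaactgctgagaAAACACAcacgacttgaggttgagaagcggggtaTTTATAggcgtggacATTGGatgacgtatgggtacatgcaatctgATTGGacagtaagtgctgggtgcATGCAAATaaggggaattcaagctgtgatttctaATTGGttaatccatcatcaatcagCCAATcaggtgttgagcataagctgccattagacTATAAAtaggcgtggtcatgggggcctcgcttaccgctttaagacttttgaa

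The first spacer belongs to a pair with peaks over both coding sequences in every library, yet peaks covered 0, 0 and 2.29% of these bases in replicates 1, 2 and 3. The second belongs to the pair of the chromosome 3 cluster, and peaks covered 13.4, 42.9 and 9.66% of it. The third, printed for 300 of its 305 bases, separates the testis genes Hist1h2ba and Hist1h2aa, and no library had a peak on it. Replicates 2 and 3 did have a peak beside it, over the coding sequence of Hist1h2ba. All 3 spacers held TATA, CCAAT and octamer matches, so these letters were present in spacers with and without a peak on them.

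The second set are the 200 bases before the RefSeq start of single genes, written 5′ to 3′ on the coding strand, which is the plus strand for each. They show a linker gene with strong peaks (Hist1h1c), the linker gene with the weakest (Hist1h1a), the testis linker gene with none (Hist1h1t), an H4 gene whose upstream flank was acetylated (Hist1h4h) and the H2b gene with none (Hist3h2ba).
Hist1h1c, chr13:23738607-23738806: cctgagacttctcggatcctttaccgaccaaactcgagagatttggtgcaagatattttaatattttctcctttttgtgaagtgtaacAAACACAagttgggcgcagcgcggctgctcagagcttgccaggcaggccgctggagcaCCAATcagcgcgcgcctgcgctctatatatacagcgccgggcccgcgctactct
Hist1h1a, chr13:23763468-23763667: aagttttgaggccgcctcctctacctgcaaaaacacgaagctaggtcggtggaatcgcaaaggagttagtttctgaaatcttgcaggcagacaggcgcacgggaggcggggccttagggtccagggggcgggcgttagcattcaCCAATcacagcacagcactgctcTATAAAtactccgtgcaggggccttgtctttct
Hist1h1t, chr13:23695611-23695810: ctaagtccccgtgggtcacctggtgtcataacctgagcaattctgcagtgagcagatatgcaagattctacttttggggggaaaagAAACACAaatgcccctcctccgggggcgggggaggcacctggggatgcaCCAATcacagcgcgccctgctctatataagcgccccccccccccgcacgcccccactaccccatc
Hist1h4h, chr13:23530844-23531043: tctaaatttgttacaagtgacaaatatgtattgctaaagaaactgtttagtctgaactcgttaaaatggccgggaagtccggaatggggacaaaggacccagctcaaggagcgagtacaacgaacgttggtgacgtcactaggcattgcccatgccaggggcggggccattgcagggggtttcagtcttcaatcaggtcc
Hist3h2ba, chr11:58948711-58948910: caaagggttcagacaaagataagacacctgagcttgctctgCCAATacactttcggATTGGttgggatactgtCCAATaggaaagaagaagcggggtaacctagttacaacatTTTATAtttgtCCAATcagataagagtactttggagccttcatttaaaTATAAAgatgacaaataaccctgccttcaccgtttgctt

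Peaks covered 47.5, 33.5 and 100% of the Hist1h1c stretch and 52.5, 47 and 51% of the Hist1h4h stretch in the 3 libraries, and 0 of the other 3 stretches in each. The Hist1h1t stretch, with no peak, carried an H1 box and a CCAAT match like that of Hist1h1c. The Hist3h2ba stretch, also without a peak, carried 2 TATA and 4 CCAAT matches. The Hist1h4h stretch held none of the 4.

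The libraries were alike in depth, as solved from the deposited peak statistics: 18.0, 18.9 and 19.3 M reads, with 23410, 25963 and 23758 peaks. The called summits with the fewest fragments had 8, 8 and 9, so acetylation below that was not detectable. Near histone genes the fewest were 11, 11 and 13. Fold enrichment, the fragments at a summit over the local background used for that library, had medians of 4.92, 4.72 and 5.53 over all peaks. It is not scaled between libraries, so comparisons were made within a library, and a gene is also placed by its percentile among all protein-coding genes with a peak there. A check of the cell type used 8 myeloid progenitor markers (Kit, Cd34, Mpo, Cebpa, Spi1, Myb, Gata2 and Runx1). All 8 had a peak within 1 kb in every library, against 45.5% of all protein-coding genes. None of 6 mature myeloid, 4 erythroid and 8 non-haematopoietic markers did, although 2, 2 and 1 of them had one in some libraries. Within 1 kb of the gene start, 6 of the 8 progenitor markers had a peak in every library, Mpo in 2 libraries and Gata2 in 1.

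Nearly all histone genes carried H3K27ac. A peak lay within 1 kb of the gene in every library for 63 of the 67 (94.0%), against 45.5% of all protein-coding genes. By library the number was 63, 65 and 65. In bulk chromatin of this kind, acetylation in more of the cells and more acetylation per cell cannot be told apart. In shares, the histone genes stood at 94.0, 97.01 and 97.01% and the other protein-coding genes at 47.9, 49.2 and 48.8%. The difference was 47.4 ± 1.12 percentage points (SD, n = 3 libraries) and was positive in 3 of 3 (exact sign-flip permutation test over libraries, two-sided, p = 0.25, the smallest that 3 libraries allow). Because histone genes are shorter than most genes, the comparison was repeated with windows of 1 kb either side of the gene start. Then 62 of 67 carried one in each library, where 39.9% of all genes did, and the difference was 52.0 ± 1.03 points (same exact permutation test, p = 0.25). With no window, so that a peak had to lie on the start base itself, it was 19.6 ± 11.9 points.

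The exceptions were few and included all 3 genes of the list known for expression in testis. Hist1h1t, the testis linker histone, had no peak in any library, although it lies inside block C. Hist1h2ba and Hist1h2aa, a divergent testis pair that forms block D, shared 1 peak, absent from replicate 1 and with a fold enrichment of 5.95 in replicate 2 and 6.83 in replicate 3. That peak lay over the coding sequence of Hist1h2ba and reached Hist1h2aa only through the 1 kb window. The other gene without a peak was Hist3h2ba, an H2b gene of the chromosome 11 cluster. The list of testis genes was drawn up with earlier results of these data known.

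Class by class, 5 of 6 H1 genes, 17 of 18 H2a genes, 16 of 18 H2b genes, 12 of 12 H3 genes and 13 of 13 H4 genes had one in each library, beside 45.5% of all genes. The share was higher for core than for linker histones by 11.7, 15.03 and 15.03 percentage points, a mean of 13.9 ± 1.89 (SD, n = 3 libraries; exact permutation test, p = 0.25). The linker share was 83.3% in every library, which is 1 gene, Hist1h1t, short of all 6. With a window of 2.5 kb the difference turned to -2.73 points.

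Along the clusters the peaks kept to the histone genes. In block C, 40, 39 and 39 peaks covered 9.60, 9.38 and 11.9% of 233 kb, and only 1 per library lay beyond 1 kb of a histone gene. In block A the peaks numbered 24, 19 and 22, with 1, 0 and 1 beyond 1 kb. The compact block B had 5 peaks in each library over 8.51 kb, and the chromosome 3 cluster had 12, 14 and 14 peaks, all within 1 kb of a histone gene.

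**Figure D1:**
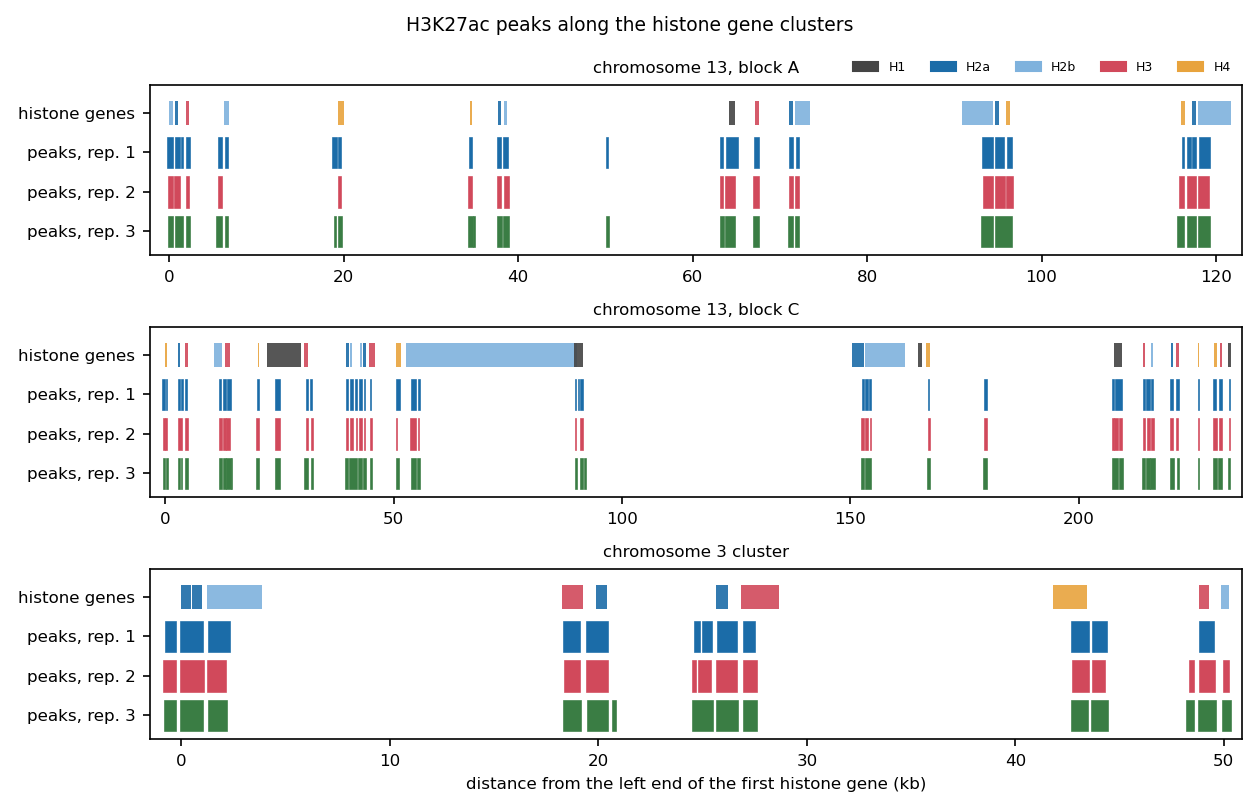
Histone genes (top row of each panel, coloured by class) and H3K27ac peaks of replicates 1, 2 and 3 in blocks A and C of the chromosome 13 cluster and in the chromosome 3 cluster, plotted by distance in kb from the left end of the first histone gene. Peaks stand at the genes and the gaps between gene groups are almost empty. The long H2b box in block C is the annotated Hist1h2be model.

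The other protein-coding genes in the span of the chromosome 13 cluster were mostly without peaks. Of 49, 4 had one in each library (8.16%, beside 45.5% of all genes) and 45 had none in any. All 36 Vmn1r vomeronasal receptor genes, all 4 Slc17a transporter genes and both Btn genes were without. The 4 with peaks were Zfp184 and Zfp322a, which encode zinc finger proteins, Abt1, and Hfe, whose product regulates iron uptake and which lies inside block C. Hfe had fold enrichments of 6.82, 9.75 and 10.5. These neighbours were chosen by position, and no test was made of the difference.

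The peaks at histone genes recurred between libraries. Merging the overlapping peaks of the 3 libraries gave 81 regions within 1 kb of a histone gene, of which 71 (87.7%) were found in all 3, beside 14280 of 34595 regions (41.3%) genome-wide. The genome-wide regions include those far from genes. Counted by gene, peaks recurred widely outside the clusters too. Of all protein-coding genes, 10543, 10831 and 10731 had a peak within 1 kb in replicates 1, 2 and 3, and 9975 had one in all 3. Across the 63 genes with a peak in every library, Spearman's rho of fold enrichment for replicates 1 and 2 was 0.844, for 1 and 3 it was 0.741 and for 2 and 3 it was 0.727. Neighbouring genes often share their strongest peak (46 of 82, 45 of 80 and 44 of 82 peaks lay near several members), so these points are not independent and the values are descriptive.

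The height of the peaks was middling. The median fold enrichment of the histone genes with a peak was 8.57, 8.21 and 11.5, against 8.88, 9.16 and 10.6 for other genes. The ratio was 0.966, 0.896 and 1.09, with a mean of 0.985 ± 0.099 (SD, n = 3 libraries), below 1 in 2 of 3 libraries (exact permutation test, two-sided, p = 0.75). No histone gene reached the top 10% of genes in any library, and the median percentile was 48.1, 42.9 and 55.4. Counted in fragments at the summit instead of fold enrichment, the ratio to other genes was 1.18. The local background at peaks near histone genes was 1.68 times the genome-wide background at the median in each library, against 1.19, 1.19 and 1.21 over all peaks, and its part in the fold enrichment was not tested.

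The peaks were also wider. Their median width was 531, 573 and 634 bp, against 407, 403 and 442 bp at other genes, a ratio of 1.39 ± 0.071 (SD, n = 3 libraries), above 1 in 3 of 3 (exact permutation test, p = 0.25). The ratio was 1.04 when only peaks within 1 kb of gene starts were compared, and 1.02 with peaks whose −log10 q was at least 5, so the difference in width did not hold at gene starts.

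**Figure D2:**
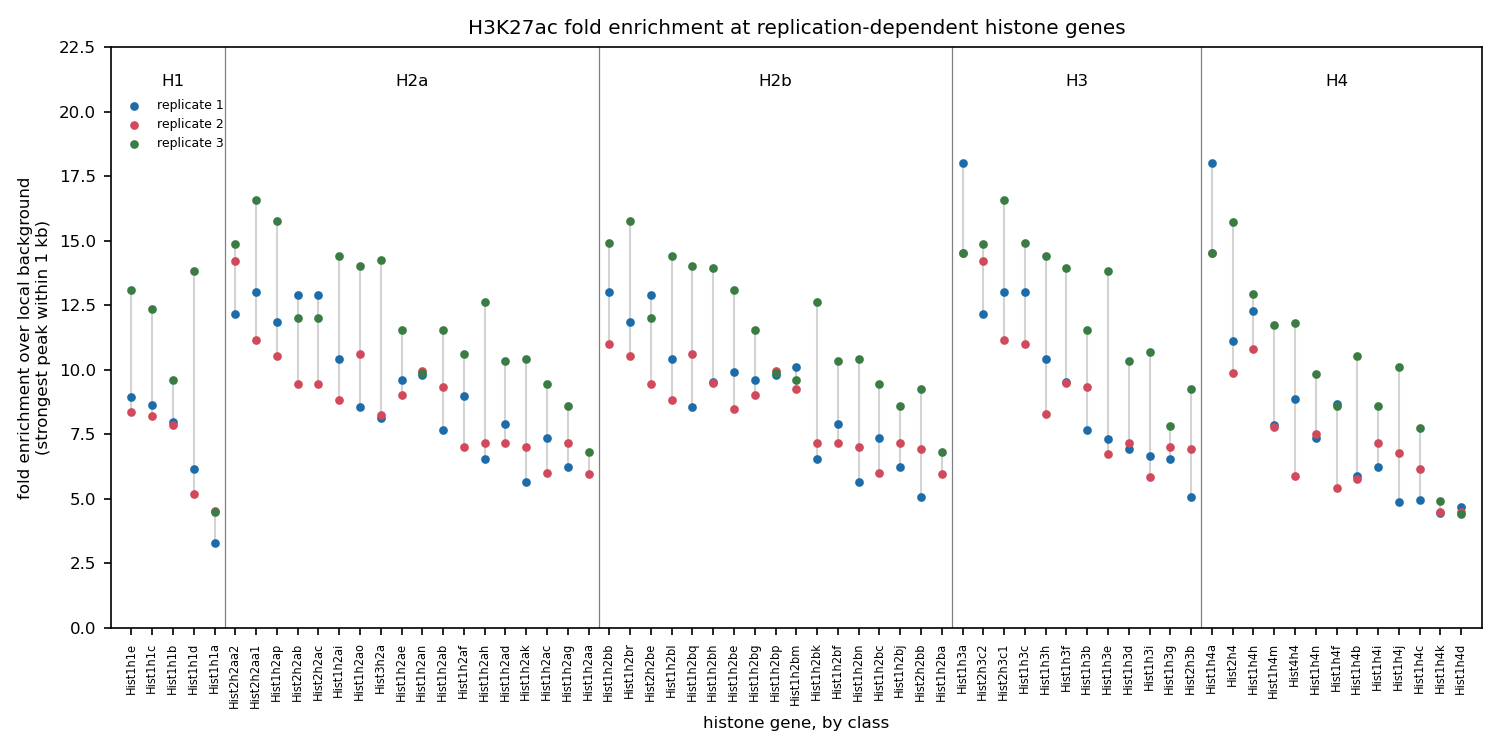
Fold enrichment of the strongest H3K27ac peak within 1 kb of each histone gene with a peak, by class. Each point is a library (colour), grey lines join the lowest and highest library, and genes are ordered within a class by their mean. Hist1h1a, Hist1h4k and Hist1h4d stayed below 5 in all libraries, and Hist1h3a and Hist1h4a reached 18.0 in replicate 1.

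Individual genes ranged from 3.30 to 18.0 in replicate 1, from 4.50 to 14.5 in replicate 2 and from 4.40 to 16.6 in replicate 3. The highest were Hist1h4a and Hist1h3a, neighbours in block C that share a peak over the Hist1h3a coding sequence. It had a fold enrichment of 18.0, 14.5 and 14.5, a mean percentile of 78.5 ± 8.38 (SD, n = 3). The duplicated genes of the chromosome 3 cluster came next. Hist2h3c2 and Hist2h2aa2 shared a peak of 12.2, 14.2 and 14.9, and Hist2h2aa1 and Hist2h3c1 shared one of 13.01, 11.1 and 16.6. Their coding sequences are duplicated, and how the authors placed reads that match several copies is not given in the sources used here.

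At the other end, Hist1h1a had 3.30, 4.52 and 4.49, a mean percentile of 6.53 ± 5.20 (SD, n = 3). Hist1h4d followed with 4.66, 4.50 and 4.40 and Hist1h4k with 4.44, 4.51 and 4.92. Hist1h4c, with 4.95, 6.14 and 7.72, was next, and Hist2h3b and Hist2h2bb shared a peak of 5.06, 6.92 and 9.27. Replicate 3 gave the highest of the 3 values for 52 of the 63 genes with a peak in every library, and the median over all peaks was also highest there.

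The linker histone genes ran from the lowest value of all to 8.96, 8.38 and 13.8 at the top. Hist1h1e, whose peak also falls in the window of the long Hist1h2be model, had 8.96, 8.38 and 13.1, Hist1h1c had 8.64, 8.21 and 12.4, and Hist1h1b had 7.99, 7.84 and 9.58. These 3 lay close together in replicates 1 and 2. Hist1h1d was more variable, with 6.14, 5.18 and 13.8, and its replicate 3 value came from the coding peak of the neighbouring Hist1h3e, reached through the window of the long Hist1h1d gene model. The peak over the Hist1h1d coding sequence had 7.67 there. All 5 stood above Hist1h1t, which had no peak.

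In the chromosome 13 cluster the H2a genes ran from Hist1h2ag (6.24, 7.17 and 8.60) to Hist1h2ap (11.9, 10.5 and 15.7). The Hist1h2ap values are those of the peak over the Hist1h2br coding sequence, and the coding peak of Hist1h2ap had 7.36, 7.50 and 9.83. The H2b genes ran from Hist1h2bj, which shares the Hist1h2ag peak, to Hist1h2bb (13.03, 10.98 and 14.9). The Hist1h2bb values came from a peak outside its coding sequence that is also within 1 kb of Hist1h3c. The coding peak of Hist1h2bb had 4.99, 5.81 and 7.58. The H3 genes ran from Hist1h3g (6.54, 7.001 and 7.82) to Hist1h3a, and the H4 genes from Hist1h4d to Hist1h4a. These genes were picked as the extremes of the same values, so their separation follows from the choice.

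The H4 genes were the class with the lowest values. Their median fold enrichment was 7.36, 6.77 and 10.1, against 9.57, 8.81 and 11.5 for H2b genes. The ratio of H4 to H2b was 0.805 ± 0.063 (SD, n = 3 libraries) and lay below 1 in 3 of 3 (exact permutation test, p = 0.25). With peaks over the coding sequence alone, a setting added after the data were seen, the ratio was 0.870 ± 0.119.

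The chromosome 3 cluster had higher medians than the chromosome 13 cluster in each library, a difference that was not tested. Its median fold enrichment was 12.5, 9.67 and 13.4, against 7.90, 7.50 and 10.7. Hist2h2ab, Hist2h2ac and Hist2h2be shared a peak of 12.9, 9.45 and 12.0, Hist2h4 had 11.1, 9.89 and 15.7, and only Hist2h3b and Hist2h2bb fell below the medians of chromosome 13 in each library. On chromosome 11, Hist3h2a had 8.15, 8.25 and 14.3, a peak also within 1 kb of Trim17, whose annotated span starts at the same base. Hist4h4 on chromosome 6 had 8.86, 5.90 and 11.8.

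Most histone genes had a peak inside the coding sequence and few had one just before it. A peak lay over the position 150 bp downstream of the coding start in 62, 63 and 63 of the 67 genes. Upstream of the coding start the count dropped to 2 genes at -125 bp in replicate 1, 0 at -175 bp in replicate 2 and 2 at -125 bp in replicate 3. At -400 bp it was back at 41, 38 and 43 genes. These include genes of the 12 divergent pairs, whose coding starts lie 279 to 335 bp apart. For them, -400 bp falls in the coding sequence of the partner gene. The bases just before the coding start thus lay in a gap in the peaks. A peak over the gene lay on one side and, for most genes, a peak upstream on the other. In divergent pairs the upstream peak can be the coding peak of the partner. Among peaks that overlap the coding sequence, the strongest summit lay at a median of 212, 219 and 184.5 bp from the coding start. The strongest peak near a gene was not always this one. At Hist1h4h an upstream peak had 12.3, 10.8 and 12.9, and the coding peak had 4.87, 4.53 and 3.28.

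**Figure D3:**
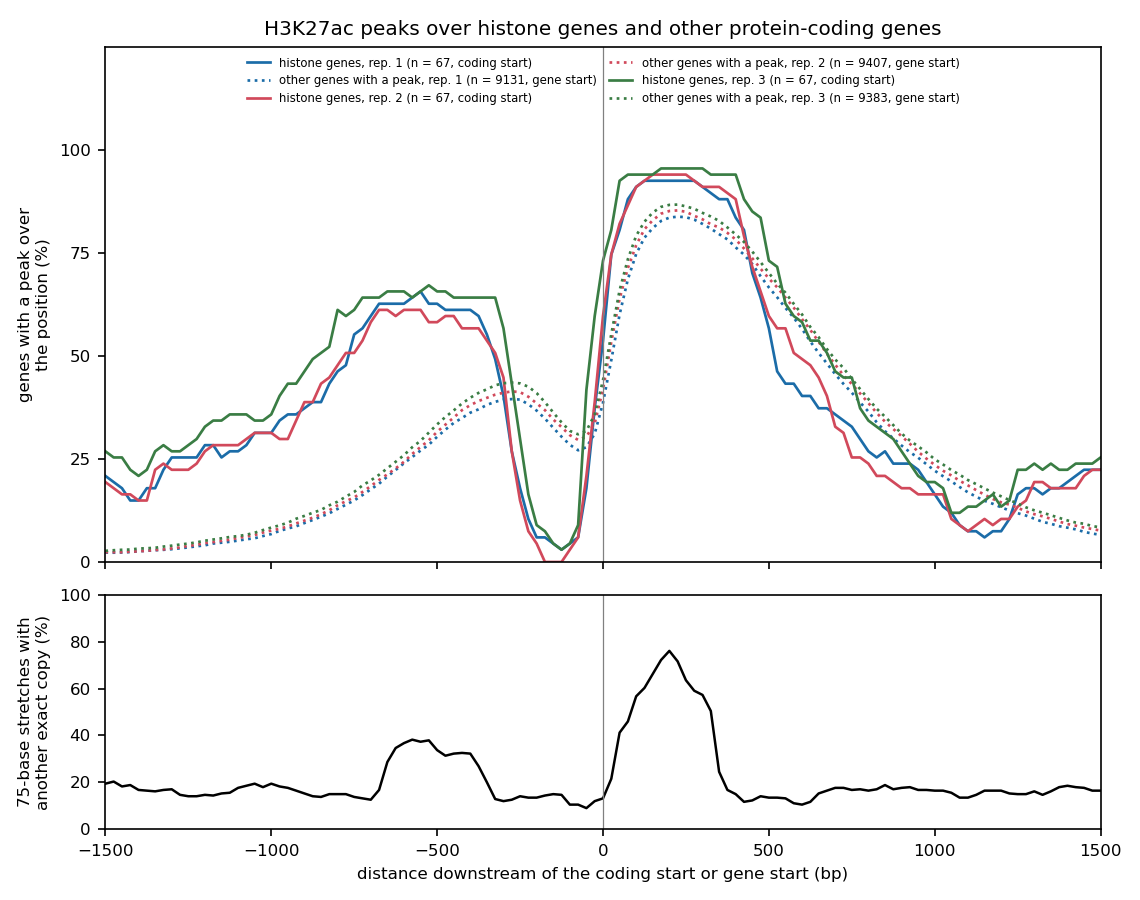
Top, percentage of genes with an H3K27ac peak over each position, for the 67 histone genes from the coding start (solid lines) and for other protein-coding genes with a peak within 1 kb of their start, from the gene start (dotted lines), in each library. Bottom, percentage of 75-base stretches around histone genes that have another exact copy in the genome. The histone profile falls to between 0 and 2.99% just upstream of the coding start and rises to between 92.5 and 95.5% inside the gene, where the copied stretches are also most frequent.

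A gap of this kind was also present at other genes, and the drop in the share of genes covered was larger at histone genes. Measured from the gene start for both, the share of genes under a peak dropped, from its value at 150 bp to its lowest point upstream, by 86.6, 89.6 and 88.1 percentage points at histone genes. For other genes with a peak within 1 kb of the start, the drop was 53.9, 53.3 and 53.8 points. The difference was 34.4 ± 1.80 points (SD, n = 3 libraries), positive in 3 of 3 (exact permutation test, p = 0.25). The drop is a share over genes aligned on annotated starts, so it does not measure the depth of a gap at single genes. All 67 histone genes entered it, but only those other genes with a peak near the start. This comparison was chosen after the profile had been seen.

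Over the whole coding sequence, 61 of the 67 genes carried one in every library, where 28% of all protein-coding genes did. The 6 without were Hist3h2ba, Hist1h1t, Hist1h2aa, Hist1h2ba, Hist1h2bm and Hist2h2bb. The last 2 had coding peaks in 2 libraries each and a nearby peak in all. The coding sequence was fully covered in 34, 36 and 46 genes.

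Divergent pairs, whose genes are also part of the profile above, showed the same gap. The 12 pairs were all of an H2a with an H2b gene, with coding starts 279 to 335 bp apart (median 300). Both coding sequences carried a peak in 11 of 12 pairs in each library, and in no library did 1 peak span a spacer. The median share of the spacer between coding starts under a peak was 13.4, 14.4 and 25.9%. At Hist1h2ae and Hist1h2bg this share was 16.4, 14.5 and 25.3%. The spacer printed above for this pair is shorter, because it runs between gene starts. The coding peaks had 9.59, 7.50 and 11.5 for Hist1h2ae and 8.72, 9.03 and 10.0 for Hist1h2bg. The pair with the highest mean over both genes and 3 libraries, Hist1h2ap and Hist1h2br, had 7.36, 7.50 and 9.83 on the H2a side and 11.9, 10.5 and 15.7 on the H2b side, but its sequence is duplicated in full and it was not the highest pair in every library. The chromosome 3 pair Hist2h2ac and Hist2h2be had 12.9, 9.45 and 12.0 on the H2a side and 9.33, 6.52 and 9.18 on the H2b side. The peak on the H2a side also covers Hist2h2ab. Its summit lay 77, 97 and 98 bp into Hist2h2ab, and 851, 831 and 830 bp from the coding start of Hist2h2ac. This is beyond the 387 bp coding sequence of Hist2h2ac, so the members of this pair were not ranked. Hist1h2ag and Hist1h2bj, the lowest by that mean among pairs with peaks on both genes, had 6.24, 7.17 and 8.60 against 4.81, 5.37 and 7.37. The H2a gene was the higher member in all 3 libraries at Hist1h2ag and Hist1h2bj, and the H2b gene at Hist1h2ap and Hist1h2br.

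**Figure D4:**
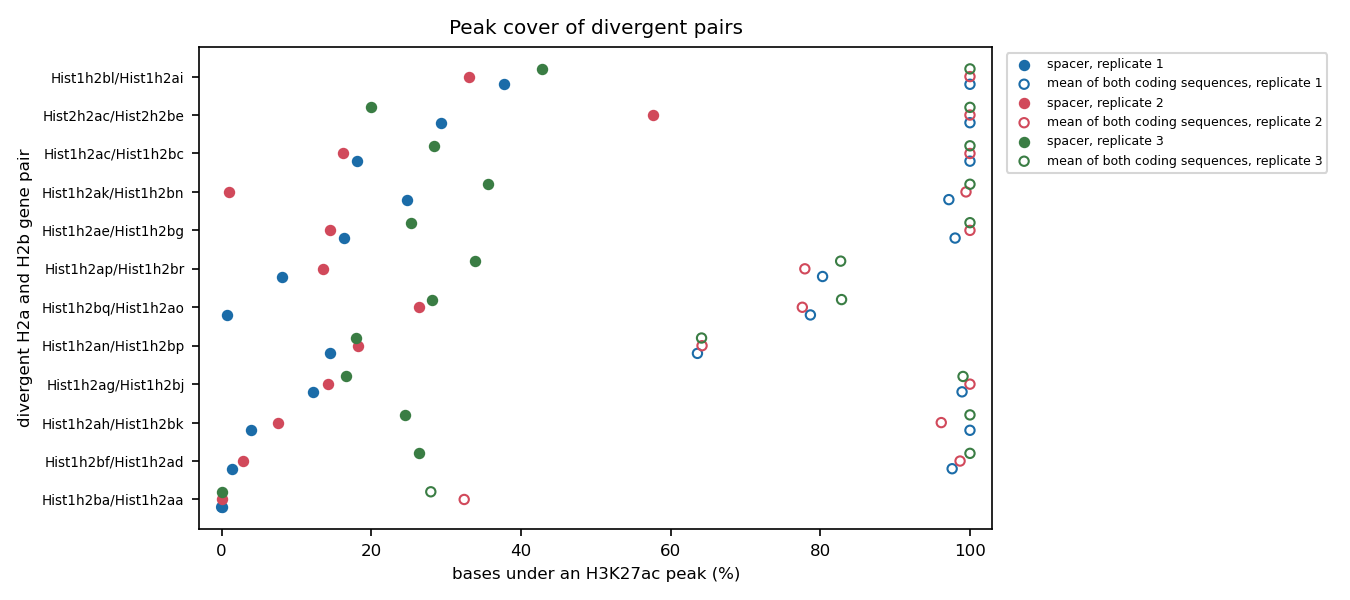
Percentage of bases under an H3K27ac peak in the spacer between the coding starts of each divergent H2a and H2b pair (filled points) and over the coding sequences (open points, mean of both genes), by library. In every pair but the testis pair the coding sequences were covered more than the spacer in all libraries; at Hist1h2ba and Hist1h2aa the spacer had no peak and replicate 1 had none on either gene.

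The promoters were searched for known histone promoter motifs. A RefSeq promoter was matched for 62 of the 67 genes, and the 250 bases before its start were searched on both strands. CCAAT was found in 51 of 62 (82.3%), against 34.5% of 27025 gene promoters of the same length, and TATAAA in 29 (46.8%), against 12.97%. The octamer occurred in 14 (22.6%), against 1.61%, all of them H2a or H2b genes, and the H1 box in 9 (14.5%), against 6.22%, of which 5 were H1 genes. The GC box GGGCGG was found in 32.3%, against 32.9% of all promoters, and in 9 of 12 H4 genes. CCAAT was present in all H1, H2a and H2b promoters searched, in 8 of 10 H3 and in 3 of 12 H4 promoters. Bases in a divergent spacer were counted for both genes.

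From the coding start, the median position was -140 bp for CCAAT, -94 bp for TATAAA, -157.5 bp for the octamer, -160 bp for the GC box and -169 bp for the H1 box. The searched bases lie largely in the gap described above, and peaks covered 12.4, 9.87 and 19.6% of them in the 3 libraries, so most matches of any string would lie outside peaks. Of 140 CCAAT matches, 5, 3 and 3 lay under a peak (3.57, 2.14 and 2.14%), and of 14 octamer matches 0 did in each library. For TATAAA it was 2, 2 and 3 of 35, and for the H1 box 2, 0 and 1 of 9. For GC boxes it was 9, 5 and 8 of 37 (24.3, 13.5 and 21.6%), above the share of searched bases in each library. None of these shares was tested against the share of searched bases. These matches describe letters in the promoters and do not show that a factor was bound.

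The histone genes share sequence with each other, and this limits what the peaks can say of single genes. In the 300 bp from the coding start, 54.0% of all 75-base stretches had another exact copy in the genome, against 13.03% between -200 and -51 bp. Within 500 bp of the start the share was 30.5% for histone genes and 5.63% for other protein-coding genes. In the 300 bp from the coding start, all stretches were copied in Hist1h2ao, Hist1h2ap, Hist1h2bq, Hist1h2br, Hist2h3c1, Hist2h3c2, Hist2h2aa1 and Hist2h2aa2. For these 8 the peak may belong to any of the copies, and their values are uncertain as values of 1 gene.

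Peaks were also found where sequence was unique. Of the 9 genes with at most 10% copied stretches in the first 300 bp, 6 had a coding peak in all 3 libraries, beside 28% of all protein-coding genes. They were Hist3h2a, Hist1h1b, Hist1h1a, Hist2h2be, Hist2h4 and Hist4h4. The other 3 were Hist1h1t, Hist1h2aa and Hist2h2bb. Of the 17 with 10 to 50% the number was 14, and of the 41 above 50% it was 41. The share with a coding peak thus moved with the share of copied sequence, and the part of the copies, or of how reads matching several copies were placed, was not tested. The lowest-copied class was H1, with a median of 13.9%, and the highest were H2a and H3, with 74.6% each.

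Genes that work with the clusters were acetylated as well. All 7 genes of the list for histone transcription had a peak in every library, against 45.5% of all genes, and so did 9 of 9 for histone mRNA processing. Npat, the cyclin E-CDK2 substrate that drives histone transcription, had 19.1, 15.9 and 14.3, and Hinfp, which binds H4 promoters, had 14.4, 14.8 and 17.3. Pou2f1, which binds the octamer, had 11.03, 11.7 and 10.6, and Slbp, the stem-loop binding protein, had 10.6, 9.13 and 11.8. Of 11 replication-independent histone genes, which supply variants outside S phase, 10 had one in each, with a median percentile of 64.9. H3f3a, encoding H3.3, had 21.7, 20.7 and 21.3, above every replication-dependent gene in each library. H1fx, at 3.07, 3.97 and 5.21, was the lowest of the 10 in each library, and H2afy2 had no peak.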

How the data were processed

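H3K27ac ChIP-seq of 3 BcorΔE9-10 KL libraries was analysed, with groups and replicate numbers taken from the sample titles. The histone genes and gene lists were chosen with earlier results of these data known. For the deposited lists, the authors mapped reads with bowtie2 (build GRCm38), discarded duplicates and ran MACS2 2.1.1 on each library without pooling. The submitters' processing notes also name cutadapt 1.7 and deepTools 2.5.3. The control and the peak caller's settings are not given in the sources used here. Each deposited row holds a fold enrichment (a ratio to local background), the −log10 of a p-value and of a q-value, an integer score that was not used, and the summit's distance from the peak start.

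Rows with the same interval were collapsed into 1 peak, which kept the largest fold enrichment. The fold enrichment and p-value of each row were solved for its fragments and background (100% of rows, within 0.001), and the background gave the depth, for fragments of 200 bp and a genome size of 1.87e+09. Reads carry no molecular identifiers, so depth covers counting error only. Gene models were GENCODE M21, with the class read from the symbol. A gene had a peak if one overlapped it or lay within 1 kb, and all such peaks were assigned to it. Percentiles rank a gene's strongest peak among the protein-coding genes with a peak in that library. Regions were overlapping peaks of the 3 libraries, merged. Exact copies of 75-base stretches were counted on both strands of the RefSeq GRCm38 chromosomes. Promoters were RefSeq GRCm38.p6, 250 bases before the start, matched by gene synonym, strand and position. The test of differences and ratios was an exact two-sided sign-flip permutation over 3 libraries, whose smallest p is 0.25. The libraries come from 3 mice per the methods of the study. A p of 0.25 records only that all 3 libraries lay on the same side, and the SD gives the spread between them. The named genes are all those of chromosomes 3, 11 and 6, all H1 genes, the 5 highest and 5 lowest by mean percentile with ties, the highest and lowest of each core class on chromosome 13, those with peaks in fewer than 3 libraries, and divergent pairs of high and low values. Scripts ran in Python 3 and were checked on simulated data.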

Additional observations from a re-analysis of the deposited data

How the results depend on the processing

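No paired analysis was possible because a single genotype with a single mark was studied. With the gene body alone (no window), the start-site difference in share was 19.6 ± 11.9 points, the fold-enrichment ratio to other genes 0.852, the core minus linker difference 11.7 points and the H4 to H2b ratio 0.870. With 2.5 kb they were 53.5, 1.02 (reversed), -2.73 (reversed) and 0.871. Within 1 kb of the gene start the difference in share was 52.0, the width ratio 1.04 and core minus linker 30.6. With −log10 q of at least 5 the difference in share was 51.6, at the start site 55.1, the width ratio 1.02 and core minus linker 19.5. With each peak given to the nearest start only, the start-site difference was 50.5, the fold-enrichment ratio 0.875, the width ratio 1.31, core minus linker 9.02 and H4 to H2b 0.915. With −log10 p as the measure, the fold-enrichment ratio was 1.10 (reversed). Leaving out each library gave 0.931 to 1.03 for that ratio, above 1 without replicate 2. Settings chosen after seeing the data were a peak over the coding sequence (difference in share 62.3, width ratio 1.499, core minus linker 11.7, H4 to H2b 0.870) and fragments at the summit as the measure (ratio 1.18, reversed). The fold-enrichment ratio thus has no stable direction. The count of genes with a peak in all 3 libraries was between 59 and 65 and that of regions between 59 and 75 in every setting. The causes were not tested. The smallest called summits held 8 or 9 fragments, and those near histone genes 11, 11 and 13, so weaker acetylation was not detectable.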
